A study of Homo sapiens with 6 samples.

Results

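Endothelin and angiotensin system genes were examined in a tubular epithelial line of human kidney, with and without TGF-β1. The set held 9 genes, taken by name from the 41497 named entries of the gene tables, and each had 1 entry on a primary chromosome. They were the ligand precursors EDN1, EDN2 and AGT, the processing enzymes ECE1, ACE and ENPEP, and the receptors EDNRA, EDNRB and AGTR1. The cells were HK-2, an immortalised line derived from human kidney proximal tubule, with the genotype given as WT in both groups. Control cells were untreated and the others received TGF-β1, a profibrotic cytokine. RNA from both groups was sequenced at 24 h, with 3 libraries each, to measure the response of these cells to TGF-β1. Per the labels the line was kept in DMEM-F12 with fetal bovine serum, and the study's methods describe its TGF-β treatments as serum-free. The methods give more than 1 TGF-β dose for work on these cells, and the sources used here do not say which applies to the sequenced cells or whether the controls were without serum. All libraries came from 1 cell line. The labels number the replicates without saying that they were separate cultures, so the p-values measure the spread between these libraries, which may be technical.

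Endothelins are short vasoconstrictor peptides cut from longer precursors, and endothelin converting enzyme makes the last cut. They act on the A and B type receptors encoded by EDNRA and EDNRB, and in the kidney they affect vessel tone, sodium handling and scarring. In the angiotensin system, angiotensinogen, the AGT product, is first cut to angiotensin I. ACE then produces angiotensin II, which acts mainly on the type 1 receptor encoded by AGTR1, and aminopeptidases such as ENPEP shorten it further.

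EDN1 and EDN2 encode closely related peptides, and the bases that encode each mature peptide are shown because these 2 genes are the ligands compared here. Both stretches lie in coding exon sequence, in exon 2 of 5 of the transcript used (GENCODE annotation of GRCh38). The EDN1 stretch is at chr6:12292433-12292495 on the plus strand and the EDN2 stretch is at chr1:41484061-41484123 on the minus strand. Each is written 5′ to 3′ along its own gene, and capitals mark the bases that differ between the 2 genes. Of 63 bases, 12 differ, and these change 2 of 21 residues.
EDN1: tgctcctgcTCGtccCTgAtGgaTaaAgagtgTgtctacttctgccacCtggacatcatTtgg
EDN2: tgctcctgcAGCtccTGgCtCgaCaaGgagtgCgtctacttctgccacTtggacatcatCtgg

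The promoters of the same genes are shown because TGF-β1 acts through SMAD factors that bind DNA, and the 2 ligand genes gave different values under the same treatment. The windows are the 250 bases before the RefSeq start (GRCh38.p14), at chr6:12290111-12290360 on the plus strand for EDN1 and chr1:41484684-41484933 on the minus strand for EDN2. RefSeq lists 3 starts for EDN1, and the one nearest the start of the GENCODE transcript was used. Gene counts do not show which start the cells used. Both strands were searched for the SMAD box CAGAC, the AP-1 motif TGANTCA, the GATA motif, with the letters GATAA, and the TATA box motif TATAAA. Capitals mark matches.
EDN1: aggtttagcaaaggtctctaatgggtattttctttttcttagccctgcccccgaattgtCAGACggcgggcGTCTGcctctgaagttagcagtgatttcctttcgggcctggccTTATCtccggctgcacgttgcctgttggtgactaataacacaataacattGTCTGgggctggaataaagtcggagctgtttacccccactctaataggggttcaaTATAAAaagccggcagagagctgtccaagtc
EDN2: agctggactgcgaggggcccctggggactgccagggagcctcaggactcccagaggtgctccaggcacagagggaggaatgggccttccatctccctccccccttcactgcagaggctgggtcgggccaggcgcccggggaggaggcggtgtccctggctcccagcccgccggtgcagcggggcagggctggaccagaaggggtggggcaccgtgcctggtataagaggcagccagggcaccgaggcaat

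The EDN1 window held 3 matches to CAGAC, ending 187, 175 and 82 bases before the start. It also held 1 match to GATAA and 1 to TATAAA, the latter 31 to 26 bases before the start, and none to TGANTCA. The EDN2 window held no match to any of the 4 motifs. In either window a missing match, such as that to TGANTCA in EDN1, says only that these exact letters are not in it. Sites with other letters were not searched. Among 35116 RefSeq windows of the same length, 38.0% held CAGAC, and 1.62% held it at least 3 times. TGANTCA was present in 6.57%, GATAA in 20.4% and TATAAA in 10.7%. The matches overlap no other match and describe letters, not sites of binding. Their part in the EDN1 and EDN2 values was not tested.

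Libraries held 21.9 to 26.9 M counts. Known TGF-β response genes showed the labelled treatment. CCN2, COL1A1, SMAD7 and TGFBI rose, with log2 fold changes of 1.56 to 3.30. On the second principal component, TGF-β1 replicate 1 lay at 26.9 and the other TGF-β1 libraries at -13.2 and -15.1. Values without this library are given for EDN1, EDN2 and several pathway genes. Of 10 proximal tubule markers, LRP2 and SLC22A6 had 0 reads in all 6 libraries, and HNF4A had 1 read, whereas PAX8 averaged 251 CPM in control (CPM being counts scaled to library size). The 4 general epithelial markers summed to 682 to 724 CPM in control and 1001 to 1156 CPM after TGF-β1. Within them KRT8 and KRT18 averaged 488 and 202 CPM in control, EPCAM averaged 16.4 CPM in control and 6.85 CPM after TGF-β1, and CDH1 had 6 control reads and 3 TGF-β1 reads.

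The members differed widely in level. To compare genes with each other, levels were expressed as TPM, which scales counts to gene length as well as library size. In control libraries ECE1 was the most abundant member, at 92.9 ± 3.47 TPM (SD, n = 3). EDN1 followed at 6.27 ± 0.783 TPM, with its lowest library above the highest library of any member below it. EDN2, at 4.45 ± 0.405 TPM, and AGT, at 3.92 ± 0.503 TPM, had overlapping libraries. ACE, at 0.416, 0.438 and 0.518 TPM, and ENPEP, at 0.274, 0.463 and 0.310 TPM, also overlapped. The receptors were at or near 0. After TGF-β1, EDN2 lay with ACE and ENPEP and no longer with AGT. ECE1 was then at 91.9 ± 2.42 TPM. EDN1 was at 4.48 ± 0.176 TPM and AGT at 4.19 ± 0.296 TPM, with overlapping libraries. EDN2 averaged 0.109 ± 0.120 TPM, against 0.276 ± 0.143 TPM for ACE and 0.235 ± 0.0421 TPM for ENPEP.

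**Figure D1:**
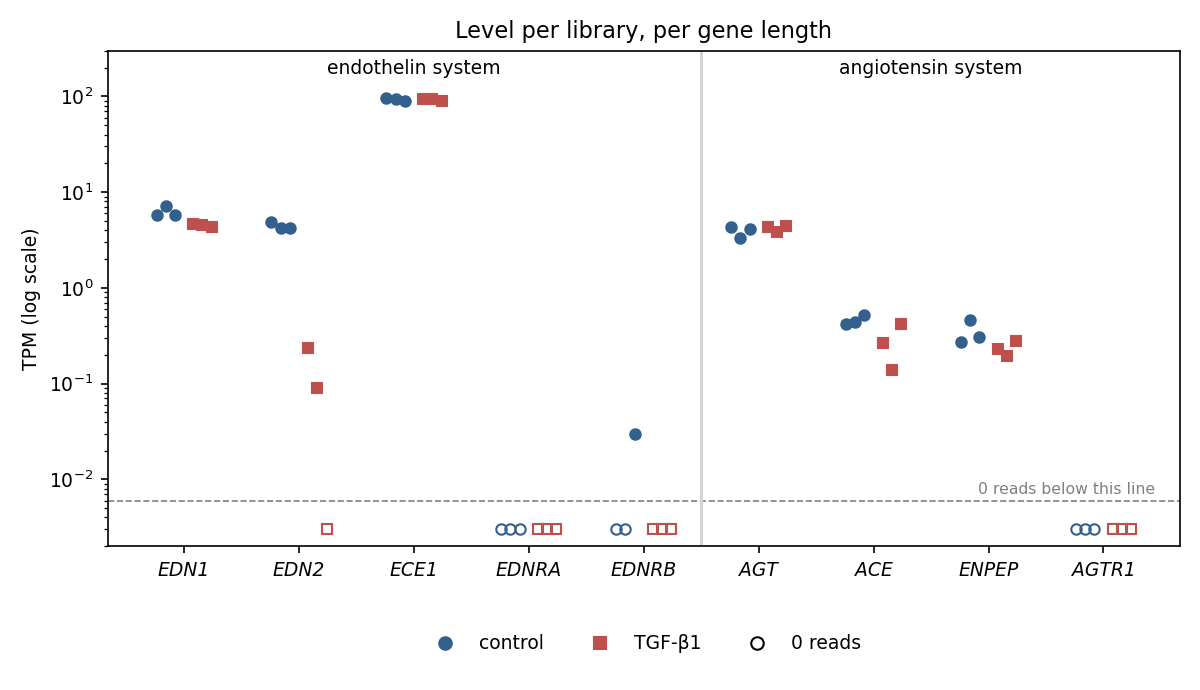
Level of each member in each library in TPM on a log axis, with control libraries as blue circles, TGF-β1 libraries as red squares and libraries with 0 reads as open symbols under the dashed line. ECE1 sits near 92 TPM in both groups, EDN2 leaves the level of AGT after TGF-β1, and EDNRA and AGTR1 have open symbols only.

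EDN2 was nearly lost after TGF-β1, and it was the only 1 of 6 tested members to be called. A gene was called at an adjusted p under 0.05 in the edgeR quasi-likelihood test over all 14860 genes tested, of which 44.3% were called and 22.1% were called lower. Genes tested are counted as named entries, some of which share a name. With entries of a name summed, 14658 were tested. EDN2 (gene-EDN2, GRCh38 chromosome 1, 41478775 to 41484699, minus strand), the precursor of endothelin-2, had 49, 45 and 42 reads in the control libraries and 3, 1 and 0 reads in the TGF-β1 libraries. These counts correspond to 2.17, 1.84 and 1.79 CPM in control and 0.115, 0.0414 and 0 CPM after TGF-β1. Every TGF-β1 library lay far below every control library. The mean went from 1.93 ± 0.207 to 0.0522 ± 0.0584 CPM (SD, n = 3), a fitted log2 fold change of -4.98 ± 0.44 (SE) with a 95% interval of -5.96 to -4.003 and adjusted p = 5.9e-06 by edgeR. Scaled to library size, reads were 34.3 times as many in control, with a 95% exact binomial interval of 13.1 to 128, which covers counting error only. Among the 14860 genes tested, 8 had a lower fitted log2 fold change. EDN2 entered the test through its control libraries alone, since its TGF-β1 libraries were under the count minimum. Without TGF-β1 replicate 1, which held 3 of the 4 reads, the fitted log2 fold change was -6.15, at adjusted p = 1.8e-07 by edgeR. Because these are bulk libraries, fewer cells that make a transcript and less of it per cell cannot be told apart.

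EDN1 was lower in every TGF-β1 library by a small margin that did not pass the test. EDN1 (gene-EDN1, chromosome 6, 12256463 to 12297194, plus strand), the precursor of endothelin-1, had 106, 140 and 107 reads in the control libraries and 108, 92 and 77 in the TGF-β1 libraries. With library size taken into account these were 4.70, 5.72 and 4.56 CPM in control and 4.15, 3.81 and 3.68 CPM after TGF-β1. The groups did not overlap, as for 55.6% of all genes tested, and control replicates 1 and 3 were closer to TGF-β1 replicate 1 than to control replicate 2. The means were 4.99 ± 0.636 and 3.88 ± 0.244 CPM (SD, n = 3). The fitted log2 fold change was -0.36 ± 0.14 (SE), with a 95% interval of -0.67 to -0.05, and the edgeR adjusted p of 0.0557 missed the threshold of 0.05.

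The EDN1 result lay close to that threshold, and its side depended on the setting. With scaling by total counts alone the log2 fold change was -0.47 at adjusted p = 0.0192 by edgeR. In the fit limited to means of 50 counts or more it was -0.39 at adjusted p = 0.0389 by edgeR. Without TGF-β1 replicate 1 it was -0.43 at adjusted p = 0.0381 by edgeR, and without control replicate 2 it was -0.25 at adjusted p = 0.229 by edgeR. The direction was the same in all 14 alternatives.

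**Figure D2:**
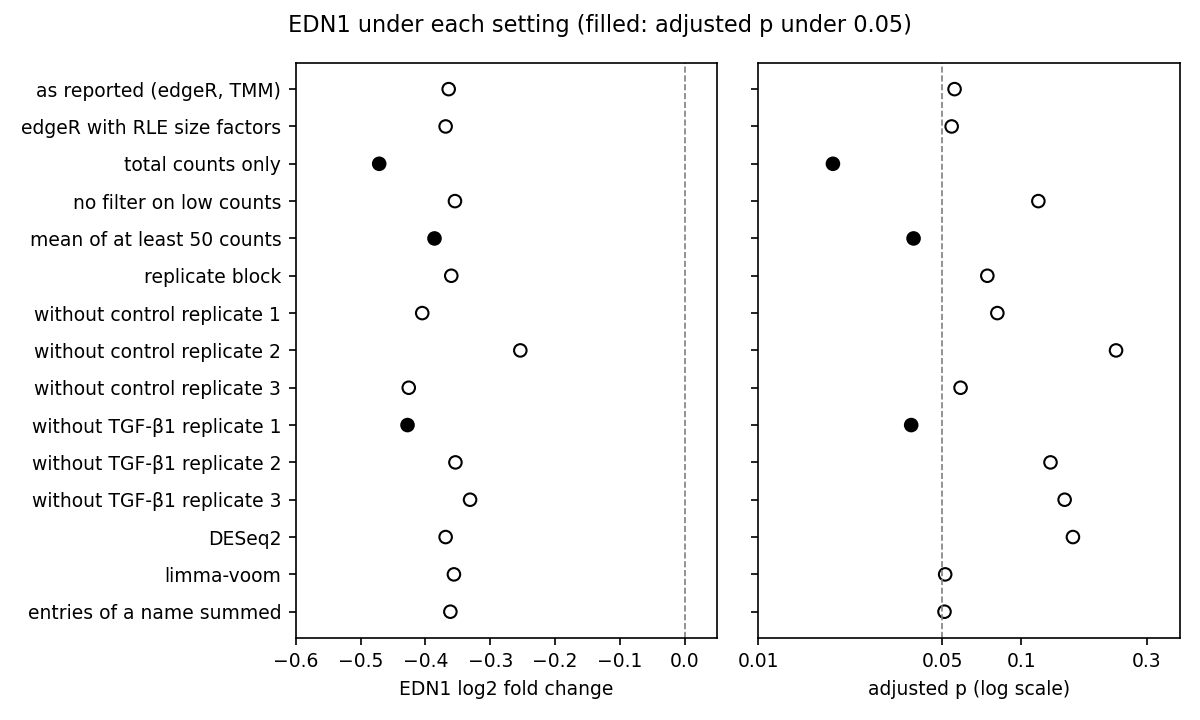
EDN1 log2 fold change of TGF-β1 against control (left) and its adjusted p on a log axis (right) under the reported setting and 14 alternatives, with filled points where the adjusted p is under 0.05. All estimates lie between -0.47 and -0.25, and 3 of the alternatives have a filled point.

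The share of EDN1 in the 2 ligand transcripts restates the EDN2 values and is given as a description. EDN1 made up 54.1%, 62.9% and 58.1% of the summed EDN1 and EDN2 TPM in the control libraries, and 95.2% and 98.0% in TGF-β1 replicates 1 and 2. TGF-β1 replicate 3 had no EDN2 read. The means were 58.4% ± 4.40 and 97.7% ± 2.44 (SD, n = 3).

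The 2 other genes whose log2 CPM most closely followed EDN2 were NRBP2 and PARD6B. Across the 6 libraries and among 10598 genes that averaged 5 CPM or more, the Pearson correlation with EDN2 was 0.9993 for NRBP2 and 0.9985 for PARD6B. These values mainly describe the gap between the groups and carry no p-value. NRBP2 averaged 29.5 CPM in control and 18.8 CPM after TGF-β1, and PARD6B, which encodes a cell polarity protein, averaged 37.0 and 16.4 CPM.

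Markers of endothelial cells were read beside EDN1 and EDN2. Only CDH5 of 6 passed the filter, and it was called lower, as were 22.1% of all genes tested. CDH5 entered the test through its control libraries alone, since it had 0 reads in each TGF-β1 library. The summed level of 6 endothelial markers was 1.11 to 1.91 CPM in control and 0.0955 to 0.192 CPM after TGF-β1. CDH5, an endothelial cadherin, had 62 control reads and 0 TGF-β1 reads, PECAM1 had 14 and 0, and VWF had 4 and 0. The defining receptor KDR had 0 and 1, TEK had 6 and 3, and CLDN5 had 13 and 6. In the same libraries EDN1 had 353 control reads and 277 TGF-β1 reads, and EDN2 had 136 and 4. The part of these markers in the EDN1 and EDN2 values was not tested.

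ECE1 was far more abundant than the ligands and did not differ between the groups beyond its spread. ECE1 (gene-ECE1, chromosome 1, 21217250 to 21345504, minus strand), endothelin converting enzyme 1, was at 200.4, 196 and 180.5 CPM in control and 216, 205 and 198 CPM after TGF-β1. The lowest TGF-β1 library fell within the range of the control libraries. The means were 192 ± 10.5 and 206 ± 8.97 CPM (SD, n = 3), with a log2 fold change of 0.10 ± 0.06 (SE), a 95% interval of -0.03 to 0.23 and adjusted p = 0.182 by edgeR. The sign of this estimate turned with scaling by total counts alone, to -0.0047. The antisense entry ECE1-AS1 overlaps ECE1 and held 20 reads in all, against 28287 for ECE1.

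Endothelin receptor transcripts were at or near 0 reads. EDNRA (gene-EDNRA, chromosome 4, 147481097 to 147544954, plus strand) had 0 reads in all 6 libraries. EDNRB (gene-EDNRB, chromosome 13, 77895481 to 77975527, minus strand) had 1 read, in control replicate 3. A group with 0 reads allows up to 3, which is 0.0426 CPM over the control libraries and 0.0422 CPM over the TGF-β1 libraries. No difference between the groups could be measured for either receptor.

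On the angiotensin side, AGT, ACE and ENPEP were detected at low levels and none was called by edgeR, with unadjusted p of 0.116 or more. AGT (gene-AGT, chromosome 1, 230702523 to 230745583, minus strand), encoding angiotensinogen, was at 2.88, 2.21 and 2.64 CPM in control and 3.19, 2.69 and 3.10 CPM after TGF-β1. The groups overlapped. The means were 2.58 ± 0.341 and 2.99 ± 0.267 CPM (SD, n = 3), with a log2 fold change of 0.22 ± 0.17 (SE), a 95% interval of -0.15 to 0.59 and adjusted p = 0.323 by edgeR.

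ACE (gene-ACE, chromosome 17, 63477061 to 63498373, plus strand), which converts angiotensin I to angiotensin II and degrades bradykinin, had 16, 18 and 20 reads in the control libraries and 13, 6 and 16 in the TGF-β1 libraries. TGF-β1 replicate 2 was the lowest library, and TGF-β1 replicate 3 lay within the control range in CPM. The means were 0.766 ± 0.0762 and 0.504 ± 0.258 CPM (SD, n = 3). The log2 fold change was -0.62 ± 0.36 (SE), with a 95% interval of -1.43 to 0.18 and adjusted p = 0.191 by edgeR. That interval includes both 0 and a 2-fold fall. Its estimate was -0.30 without TGF-β1 replicate 2 and -1.02 without TGF-β1 replicate 3.

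ENPEP (gene-ENPEP, chromosome 4, 110476155 to 110565285, plus strand) encodes aminopeptidase A, which trims angiotensin II and is abundant in the proximal tubule brush border. It had 15, 27 and 17 reads in the control libraries and 16, 12 and 15 in the TGF-β1 libraries. Control replicate 2 was highest, at 1.10 CPM, and the other 5 libraries lay between 0.496 and 0.724 CPM. The means were 0.831 ± 0.238 and 0.609 ± 0.110 CPM (SD, n = 3), with a log2 fold change of -0.46 ± 0.30 (SE), a 95% interval of -1.11 to 0.20 and adjusted p = 0.237 by edgeR. Without control replicate 2 the estimate was -0.19. AGTR1 (gene-AGTR1, chromosome 3, 148697903 to 148743003, plus strand), the main angiotensin II receptor, had 0 reads in all 6 libraries, under the same limits as EDNRA.

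**Figure D3:**
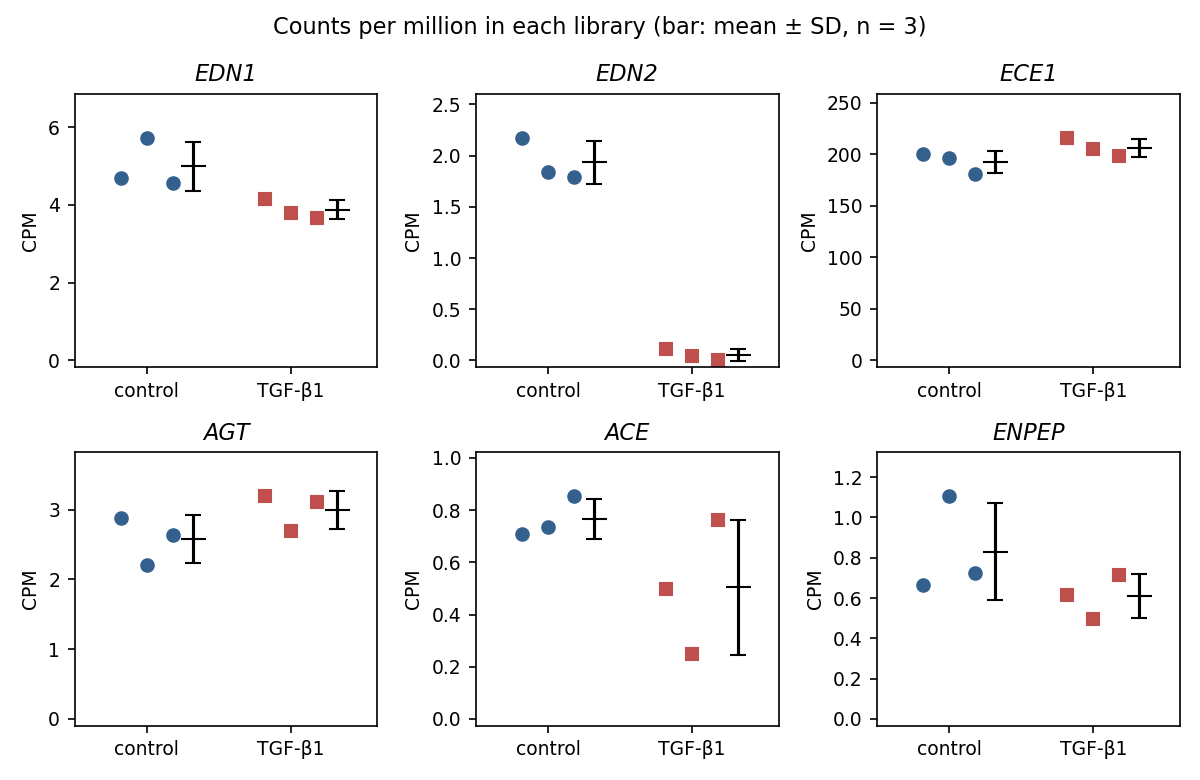
CPM of the 6 tested members in each library, with control as blue circles, TGF-β1 as red squares and black bars for the mean ± SD of 3 libraries, each panel on its own scale from 0. EDN2 is near 2 CPM in control and near 0 after TGF-β1, the EDN1 groups sit close without overlap, and the other 4 genes overlap.

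Among the 9 members, 6 passed the filter on low counts, and 1 of these, EDN2, was called, in the lower direction. EDNRA, EDNRB and AGTR1 were not tested. Over all genes tested, 22.2% were called higher, beside the 22.1% called lower. Calls of at least 2-fold were rarer, at 5.38% lower and 3.68% higher, and EDN2 was among the former. TGF-β1 libraries lay entirely below control for 2 members, EDN1 and EDN2. Over all genes tested, TGF-β1 lay entirely below control for 27.7% and entirely above for 27.9%. One call among 6 tested members is not more than the background. The median log2 fold change was -0.41 over the 6 tested members and 0.0063 over all genes tested. The member median lies between EDN1, at -0.36, and ENPEP, at -0.46, neither of which was called. Scaling by total counts alone moved the median over all genes tested to -0.10. The split of calls over all genes, 3288 lower and 3294 higher, then became 4590 lower and 2134 higher.

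To place the members in their wider system, 28 other genes of endothelin, angiotensin and kinin processing were read from the same comparison. Of these, 14 were tested, 7 fell, 3 rose and 4 were not called, where 44.3% of all genes tested were called. With control replicate 1 left out 5 were called, and with TGF-β1 replicate 2 left out 6 were called. The median log2 fold change of the 14 genes was -0.17. Of the others, 7 had 0 reads and 7 had reads but were under the filter. The list was chosen with earlier results of these data known, and 10 calls in 14 tested genes are counts, not a test of the list.

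**Figure D4:**
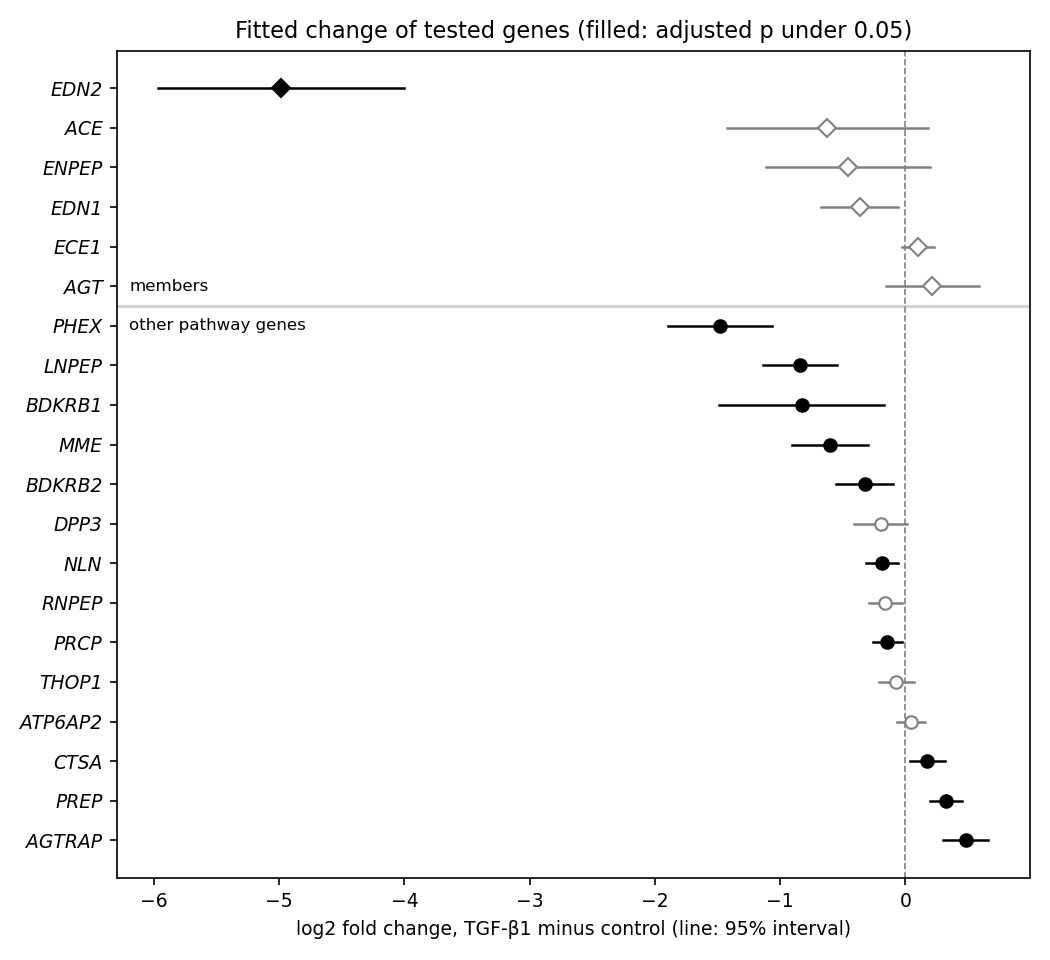
Fitted log2 fold change of TGF-β1 against control for the 6 tested members (diamonds) and 14 other tested pathway genes (circles), with lines for 95% intervals and filled symbols for an adjusted p under 0.05. EDN2 at -4.98 lies apart from the rest, which run from -1.48 to 0.48. With scaling by total counts alone ECE1 turns to -0.0047 and ATP6AP2 to -0.06.

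Among peptidases of the neprilysin family, to which ECE1 also belongs, MME and PHEX fell, while ECE1 itself was not called. MME, which encodes neprilysin, an enzyme that degrades endothelin-1 and cuts angiotensins, was at 5.32, 5.27 and 5.67 CPM in control and 3.07, 3.89 and 3.77 CPM after TGF-β1, without overlap. Its log2 fold change was -0.60 ± 0.14 (SE), at adjusted p = 0.0047 by edgeR. PHEX, a member of the same enzyme family best known for phosphate balance, was at 3.01, 2.70 and 3.54 CPM in control and 0.999, 1.07 and 1.24 CPM after TGF-β1. It had the largest fall of the called genes in this list, its log2 fold change being -1.48 ± 0.19 (SE) at adjusted p = 9.35e-05 by edgeR. EDN3, which encodes the third endothelin, and ECE2 and ECEL1, relatives of ECE1, had 0 reads in all libraries. KEL, another relative with an extra copy on an alternate contig, had 1 read.

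Peptidases that act on angiotensins or kinins moved in both directions. LNPEP, an aminopeptidase that binds angiotensin IV, was at 328, 318.5 and 324 CPM in control and 143, 203 and 196 CPM after TGF-β1. TGF-β1 replicate 1 was the lowest library and the groups were far apart. The log2 fold change was -0.84 ± 0.13 (SE), at adjusted p = 0.00135 by edgeR. Without TGF-β1 replicate 1 it was -0.71. ERAP1 overlaps LNPEP on the opposite strand with 22700 reads, and whether the counting used strand is not given in the sources used here, so the 2 genes may share reads.

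Smaller falls passed for NLN, from 66.8 ± 2.04 to 58.7 ± 2.38 CPM, and PRCP, from 66.1 ± 0.708 to 59.8 ± 1.62 CPM, with edgeR adjusted p of 0.0205 and 0.0455. NLN encodes neurolysin, an oligopeptidase, and PRCP encodes a carboxypeptidase that shortens angiotensin II. Rises passed for PREP, a prolyl endopeptidase, from 45.1 ± 1.83 to 56.4 ± 1.15 CPM, and CTSA, the lysosomal carboxypeptidase cathepsin A, from 257 ± 8.93 to 290 ± 21.6 CPM. Their edgeR adjusted p were 9.4e-04 and 0.0421. NLN and CTSA overlap other expressed genes on the opposite strand, SGTB with 5800 reads and PLTP with 6923 reads. The calls of PRCP, CTSA and NLN were lost in 8, 7 and 2 of 14 alternatives. For CTSA these included the fit without TGF-β1 replicate 1, at adjusted p = 0.0533 by edgeR.

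Among receptors and receptor partners, AGTRAP rose and both bradykinin receptors fell. AGTRAP, which encodes a protein that binds the type 1 angiotensin receptor, was at 28.5, 32.1 and 28.4 CPM in control and 45.7, 38.1 and 40.5 CPM after TGF-β1. Its log2 fold change was 0.48 ± 0.08 (SE), at adjusted p = 6.9e-04 by edgeR, in libraries where AGTR1 itself had 0 reads. Without TGF-β1 replicate 1, the highest library for AGTRAP, it was 0.39. BDKRB2, the constitutive bradykinin receptor, went from 9.68 ± 0.862 to 7.72 ± 0.424 CPM, at adjusted p = 0.0255 by edgeR. BDKRB1, the inducible one, went from 0.918 ± 0.163 to 0.509 ± 0.162 CPM, at adjusted p = 0.0438 by edgeR. The call of BDKRB1 was lost in 8 of 13 alternatives and that of BDKRB2 in 4 of 14.

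The tested genes that were not called were ATP6AP2, THOP1, DPP3 and RNPEP. THOP1, thimet oligopeptidase, averaged 106 ± 5.47 CPM in control and 101 ± 6.14 CPM after TGF-β1, and DPP3, a dipeptidyl peptidase, averaged 30.6 ± 4.203 and 26.7 ± 1.61 CPM. ATP6AP2, which encodes a protein associated with the vacuolar proton pump, averaged 189 ± 4.31 CPM in control and 195 ± 7.22 CPM after TGF-β1. RNPEP, aminopeptidase B, averaged 99.7 ± 5.996 and 89.2 ± 2.94 CPM, at adjusted p = 0.0501 by edgeR, and was called in 6 of 14 alternatives. THOP1 and DPP3 were each called in 2 of 14. Without TGF-β1 replicate 1, THOP1 and RNPEP were called, at edgeR adjusted p of 0.0422 and 0.00661. RNPEP overlaps LOC112268254 on the same strand, with 596 reads, and ELF3-AS1 on the opposite strand, with 462 reads, against 13387 for RNPEP.

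The alternative angiotensin receptors were at or near 0. AGTR2 and MAS1, receptors for angiotensin II and for its shorter product, had 0 reads. MRGPRD had 1 read. The neutrophil protease CTSG and the mast cell carboxypeptidase CPA3 had 0 reads, and CMA1, mast cell chymase, had 2 control reads and 4 TGF-β1 reads. ANPEP, a brush border aminopeptidase, had 3 reads in each group, and KLK1, tissue kallikrein, had 16 in control and 12 after TGF-β1.

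Markers of vascular wall and immune cells were read beside the angiotensin values. The smooth muscle and juxtaglomerular markers, 6 genes, summed to 6.43 to 7.33 CPM in control and 10.5 to 11.1 CPM after TGF-β1. Of these, 1 was called lower and 1 higher. PDGFRB rose from 39 control reads to 413 TGF-β1 reads, RGS5, which made up most of the control sum, fell from 426 to 336 reads, ACTA2 had 12 and 10, and MYH11 had 0 in all libraries. The 4 immune markers summed to 94.98 to 104 CPM in control and 61.5 to 85.3 CPM after TGF-β1, nearly all of it from CD68. CD14 had 179 control reads and 55 TGF-β1 reads, and both CD68 and CD14 were called lower. CD3E had 0 reads and PTPRC had 2 reads in each group. The 10 proximal tubule markers summed to 309 to 343 CPM in control and 193 to 225 CPM after TGF-β1. Of these, 2 were called lower, PAX8 and GGT1, which made up most of the sum. Another 2 were called higher, AQP1 with 28 control reads and 123 TGF-β1 reads and CUBN with 34 and 61. AQP1 had 5 and 7 reads in control replicates 1 and 2, under the count minimum of 10, so its TGF-β1 libraries carried it into the test. CUBN had 10 to 13 reads in the control libraries, close to that minimum. Over all genes tested, 22.1% were called lower and 22.2% higher. The part of these markers in the values of MME and LNPEP was not tested.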

How the data were processed

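RNA was measured in 3 control and 3 TGF-β1 libraries. The authors captured mRNA on oligo(dT) beads, primed cDNA with random hexamers and removed adapter and low-quality reads. The submitters' processing notes name CASAVA, featureCounts 2.0.1, DESeq2 1.16.1 and hg38, without roles. The aligner and the use of strand are not given in the sources used here. Per the file headers, each deposited table holds counts, TPM and FPKM per gene. TPM was recomputed from counts and listed lengths and differed from the deposited TPM by at most 3.6e-06. The deposited FPKM was not used further. Each table listed 42095 entries, and 7 records broken over lines were rejoined. The 598 entries without a name, with 0.396% to 0.464% of counts, were left out of library sizes and tests.

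Groups were compared on counts with edgeR 4.0.16 in R 4.3.3. Genes were kept by filterByExpr at a minimum count of 10, counts were scaled with TMM, and p-values of its two-sided quasi-likelihood F test (robust setting) were Benjamini-Hochberg adjusted over 14860 genes. A gene was called at an adjusted p under 0.05. The SE is the size of the log2 fold change divided by the square root of F. CPM used TMM-scaled library sizes. For correlations, log2 CPM was taken at prior count 2. The EDN2 read ratio was given a 95% exact binomial interval. The counts behind the members, from 0 to 5621 per library, limit the precision. The exact binomial interval and the limit of 3 counts cover counting error only. The 95% intervals of log2 fold changes came from the quasi-likelihood fit and include the spread between libraries. The test was checked on simulated data.

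The members and the other pathway and marker lists were chosen with earlier results of these data known. The text names all members, every pathway gene called and the 2 genes most like each called member. Other pathway genes are named to account for the list. Some genes of the lists are not reported here. Promoters came from RefSeq tables, which held both genes looked up, and peptide coding bases from GENCODE transcript sequences (Python 3.11.15, pandas 2.3.3, biopython 1.88). Alternatives were DESeq2 1.42.0, limma-voom (limma 3.58.1), RLE size factors, total counts only, no filter, a mean of at least 50 counts, a replicate block, each library left out, and entries of a name summed.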

Additional observations from a re-analysis of the deposited data

How the results depend on the processing

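The number of members called, 1, became 2 with total counts only, where EDN1 was called beside EDN2, and was 1 to 2 with 1 library left out, the second call coming without TGF-β1 replicate 1. The number of other pathway genes called, 10, was 5 to 11 with 1 library left out (control replicate 1 gave the 5 and TGF-β1 replicate 2 a count of 6) and 7 to 12 under the other settings. EDN1 passed the threshold at a log2 fold change of -0.47 with total counts only and at -0.39 when means had to reach 50 counts, and leaving out 1 library gave -0.43 to -0.25. DESeq2 gave EDN1 -0.37 with an adjusted p of 0.157. The cause of these changes was not tested. EDN2 was called in all 13 alternatives that tested it, at -6.15 to -4.52, and was under the minimum in the fit with a mean of at least 50 counts. No called value of a named gene reversed. AGT (0.11 to 0.31), ACE (-1.02 to -0.30), ENPEP (-0.59 to -0.19) and ECE1 (-0.0047 to 0.13) were called in no alternative.

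No clear pairing of the libraries by replicate number was seen, and 3 libraries per group are too few to exclude it. The correlations of same-numbered libraries' deviations from their group means were 0.111, -0.01 and 0.0762. Those of differently numbered libraries ran from -0.149 to 0.0883. With the replicate number as a block, 1 member and 9 other pathway genes were called, with EDN1 at -0.36 (edgeR adjusted p 0.0742) and EDN2 at -5.01. PRCP and BDKRB1 lost their calls and RNPEP gained one.

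Precision was limited by few reads for ACE, ENPEP and the TGF-β1 libraries of EDN2.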
